A study of Homo sapiens with 8 samples.

Results

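The AP-1 family was described here by 9 genes of basic leucine zipper (bZIP) transcription factors, of 60671 genes listed for MM.1S cells, an established human multiple myeloma cell line. The 9 genes are 4 of the FOS group (FOS, FOSB, FOSL1 and FOSL2), 3 of the JUN group (JUN, JUNB and JUND) and 2 of the BATF group (BATF and BATF3), matched by gene symbol. They were chosen by name with values of these samples already known, FOS and JUN among them. Every difference of a member between groups is therefore a description, and counts of called members are not read as tests. RNA was sequenced from 8 samples in 4 groups of 2, each harvested at 12 h. The first group received vehicle and the second received FeAc, an iron compound used at 300 μM in that comparison. The third received bortezomib, a proteasome inhibitor used against myeloma, and the fourth received bortezomib plus FeAc, with doses not given in the sources used here. All groups share the same single cell line, and 2 biological replicates are named for them.

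AP-1 is not a single protein but a set of dimers. FOS proteins cannot pair with each other and bind DNA only with a partner such as a JUN protein, whereas JUN proteins also pair among themselves, and the dimers bind short elements known as TRE and CRE. FOS, FOSB, JUN and JUNB are immediate-early genes, whose short-lived transcripts are made within minutes of a signal through MAP kinases, while JUND is made at a steadier level. BATF and BATF3 lack the activation domain of FOS, pair with JUN proteins and, in B and T lymphocytes, bind composite elements together with IRF4 or IRF8. IRF4 is a central factor of plasma cells and myeloma.

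Values were read as TPM, a transcript abundance scale that corrects for gene length and sets each sample to a common total, so levels can be set side by side between genes. Vehicle and FeAc samples were in one table, and both bortezomib groups in another, with sums per sample of 995750 to 996780 and of 994968 to 996028. The number of genes reaching 1 TPM was 13020 to 13770 in the first table and 13120 to 13446 in the second, and the depth in reads is unknown. Of 13 plasma cell markers, 12 had at least 1 TPM in every sample, the exception being CD27, at 0.150 TPM in vehicle replicate 1 and at 0 in the other samples. Their summed level was 8016 to 10230 TPM with vehicle, 8015 to 8655 with FeAc, 5556 to 6148 with bortezomib and 4375 to 6190 with bortezomib plus FeAc. JCHAIN made up most of that level, at 4572 to 6844 TPM without bortezomib and 2323 to 3460 TPM with it. Of the 12 markers, 6 were lower and 3 higher in both bortezomib samples than in both vehicle samples. Over all genes these shares were 36.1% and 26.8%. SLAMF7 was among the higher, with means of 253 TPM with vehicle and 354 TPM with bortezomib. Summed markers of T and NK cells (7 genes, CD3D and NKG7 at 0) were 6.80 to 8.75 TPM in the samples without bortezomib and 1.69 to 3.72 TPM in those with it. Most of this sum was GNLY, at 5.59 to 7.32 TPM without bortezomib and 1.27 to 3.02 TPM with it, and its part in the differences with bortezomib was not tested. Summed markers of monocytes (7 genes, S100A8 and FCGR3A at 0) were 8.82 to 14.3 TPM. Stromal markers (10 genes, LUM at 0) summed to 32.8 to 63.0 TPM, mostly from SPARC, at 17.8 to 45.9 TPM. COL1A1 was 0.690 to 1.00 TPM without bortezomib and 3.02 to 4.89 TPM with it. Of 4 stromal markers whose mean reached 1 TPM with bortezomib or vehicle, 2 were higher and 0 lower in both bortezomib samples. Over all genes these shares were 26.8% and 36.1%. In these bulk samples, fewer cells that express a gene and less RNA per cell cannot be told apart. Bortezomib and the table of the samples cannot be told apart either, so levels with and without bortezomib are set side by side without a test.

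The promoters of FOS, FOSB and JUN are shown because these 3 genes had the widest ranges over the 8 samples among the members with no value of 0. The sequences are from RefSeq on GRCh38.p14, from 250 bases before the annotated start to 50 bases after it, on the strand of the gene, and the table held 7 of the 9 members (not FOSL1 or BATF3). Capitals mark matches, on either strand, to TGACTCA (the TRE), TGACGTCA (the full CRE), TGACATCA (a variant of both), TGACG (the core of the CRE, contained in the full CRE), TATAAA (known as TATA box) or the CArG box, to which SRF binds. FOS lies at chr14:75278578-75278877 (plus strand), FOSB at chr19:45467746-45468045 (plus strand) and JUN at chr1:58783998-58784297 (minus strand).
FOS: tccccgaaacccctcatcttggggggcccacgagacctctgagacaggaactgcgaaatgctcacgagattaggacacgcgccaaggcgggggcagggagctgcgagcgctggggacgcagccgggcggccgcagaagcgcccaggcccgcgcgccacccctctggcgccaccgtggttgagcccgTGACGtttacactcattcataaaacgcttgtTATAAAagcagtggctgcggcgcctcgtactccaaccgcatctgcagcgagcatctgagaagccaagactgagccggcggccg
FOSB: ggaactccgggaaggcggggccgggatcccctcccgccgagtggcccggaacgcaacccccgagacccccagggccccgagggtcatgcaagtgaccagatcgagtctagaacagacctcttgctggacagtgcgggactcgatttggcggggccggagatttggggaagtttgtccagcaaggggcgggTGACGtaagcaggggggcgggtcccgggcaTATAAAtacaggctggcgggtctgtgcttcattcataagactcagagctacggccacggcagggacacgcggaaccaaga
JUN: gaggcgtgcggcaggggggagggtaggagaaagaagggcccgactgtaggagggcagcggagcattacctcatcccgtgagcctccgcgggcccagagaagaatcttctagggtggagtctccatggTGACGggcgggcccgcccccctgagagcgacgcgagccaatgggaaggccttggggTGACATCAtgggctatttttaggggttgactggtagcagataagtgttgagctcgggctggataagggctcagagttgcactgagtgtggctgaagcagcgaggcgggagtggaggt

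These matches were not used to choose the members. The core TGACG began at position -64 in FOS and -60 in FOSB, counted from the start base as 0, and TATAAA began at -33 and -30. JUNB had the same pair of matches, at -137 and -31, and FOSL2 had the core at -66 and -201 without TATAAA. JUN held the variant TGACATCA at -67 and the core at -123, without TATAAA, and JUND held a full TGACGTCA at -200 and another core at -86. The TRE was matched in FOSL2 at position 4, and BATF had no match. Of 35116 promoters of this length, TGACG was in 24.6%, TATAAA in 11.5%, TGACTCA in 4.95%, TGACATCA in 2.61%, TGACGTCA in 1.85% and the CArG box in 1.29%. The CArG box was in none of the 7 windows, which says only that its letters are not within them.

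**Figure D1:**
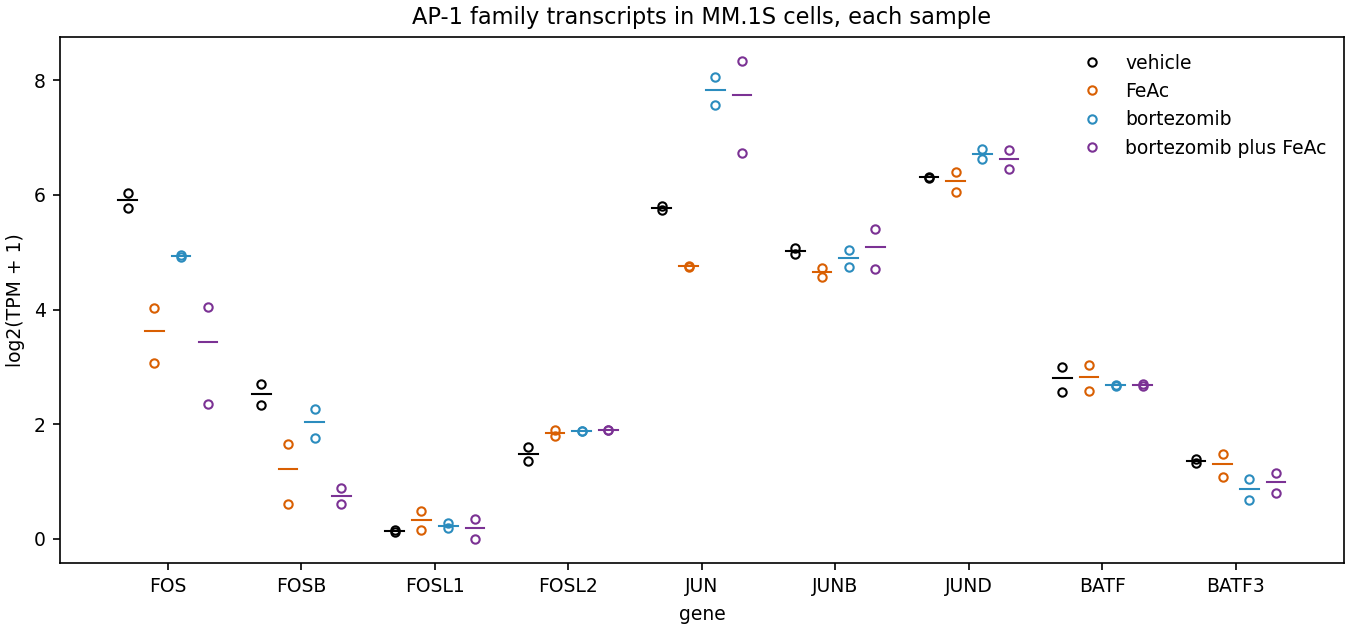
Level of each of the 9 genes on the vertical axis as log2(TPM + 1), with every sample as a circle in the colour of its group and a line at the group mean of TPM (n = 2). FOS and FOSB lie lower with FeAc than without it, JUN lies highest in both bortezomib groups, and BATF stays between 4.92 and 7.15 TPM in all 8 samples.

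In vehicle-treated cells, JUND, FOS and JUN were the most abundant members. JUND was 78.1 ± 0.707 TPM (mean ± SD, n = 2 for this and all following group values), FOS 58.8 ± 7.49, JUN 53.6 ± 1.58 and JUNB 31.5 ± 1.89. BATF was 5.97 ± 1.48 TPM, FOSB 4.78 ± 1.02, FOSL2 1.80 ± 0.318 and BATF3 1.57 ± 0.0919, and FOSL1 was near 0, at 0.0900 and 0.110. Neighbours in this order whose samples overlapped, and which were thus not separated beyond their spread, were FOS with JUN, BATF with FOSB and FOSL2 with BATF3. Among the 14812 genes whose mean reached 1 TPM in any group, JUND stood at percentile 89.3 with vehicle, FOS at 85.6, JUN at 84.4, BATF at 38.6 and FOSB at 34.3.

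FOS, the partner from which the FOS group takes its name, had the widest range of the family over the 8 samples among the 8 members with no value of 0, with a highest value 15.7 times the lowest. It was 53.5 and 64.1 TPM in the vehicle samples and 15.4 and 7.38 TPM in the FeAc samples. With bortezomib it was 29.1 and 29.9 TPM, and with bortezomib plus FeAc 4.09 and 15.5 TPM. Both FeAc samples were thus below both vehicle samples, and both samples of bortezomib plus FeAc were below both of bortezomib alone. The fitted difference of FeAc from vehicle, on log2(TPM + 1), was -2.35 (SE 0.32), rank 20 from the lowest of 13998 genes. FeAc and bortezomib plus FeAc, the lowest groups in the order of means, overlapped in their samples, whereas vehicle, bortezomib and FeAc did not overlap.

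FOSB, a FOS relative that is induced by the same signals, was lower in the same groups, with FOS 7.12 to 18.1 times as abundant in the same sample. It was 4.05 and 5.50 TPM with vehicle, 2.16 and 0.520 TPM with FeAc, 2.38 and 3.81 TPM with bortezomib and 0.520 and 0.860 TPM with bortezomib plus FeAc. The order of the group means was that of FOS, and again only the FeAc and bortezomib plus FeAc groups, as neighbours in that order, overlapped. The fitted log2 fold change of FeAc against vehicle was -1.39 (SE 0.40), rank 77 from the lowest. The 2 FeAc samples of FOSB differed 4.15-fold from each other, more than those of FOS, at 2.08-fold. Leaving out FeAc replicate 2 moved the log2 fold change of FOSB to -0.86 and that of FOS to -1.86.

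FOSL2, which encodes FRA-2, was low and lay in the other direction. It was 1.58 and 2.03 TPM with vehicle, 2.71 and 2.48 TPM with FeAc, 2.67 and 2.68 TPM with bortezomib and 2.73 and 2.72 TPM with bortezomib plus FeAc. Both vehicle samples were below all 6 others, with a log2 fold change of FeAc against vehicle of 0.36 (SE 0.26). FOSL1, which encodes FRA-1, was between 0.0900 and 0.410 TPM in 7 samples and was listed at 0 in the bortezomib plus FeAc replicate 2. It was higher in both bortezomib samples, at 0.210 and 0.140 TPM, than in both vehicle samples, at 0.0900 and 0.110 TPM. It had a mean under 1 TPM in all groups and did not pass the filter on low values in any comparison.

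JUN, the founding AP-1 gene, was 54.7 and 52.5 TPM in the vehicle samples and 25.9 and 26.1 TPM in the FeAc samples. The 2 FeAc samples differed by a factor of 1.01, and both were below every other sample of the gene. The fitted log2 fold change of FeAc against vehicle was -1.02 (SE 0.14), rank 132 from the lowest. JUNB, which can restrain the activity of JUN, was 32.9 and 30.2 TPM with vehicle and 25.6 and 22.9 TPM with FeAc, without overlap, with a log2 fold change of -0.37 (SE 0.15). JUND was 78.6 and 77.6 TPM with vehicle and 83.9 and 64.9 TPM with FeAc, so the FeAc samples lay on both sides of the vehicle samples (log2 fold change -0.08, SE 0.17).

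The BATF group showed no separation by FeAc. BATF was 7.02 and 4.92 TPM with vehicle and 7.15 and 4.96 TPM with FeAc, and the gap between samples of a group was wider than that between the groups (log2 fold change 0.02, SE 0.26). BATF3, known for its part in dendritic cells, was 1.51 and 1.64 TPM with vehicle and 1.80 and 1.12 TPM with FeAc (log2 fold change -0.08, SE 0.30). In both genes the samples of the FeAc and vehicle groups overlapped.

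Of the 8 members whose mean reached 1 TPM with FeAc or vehicle, 0 were called with limma-trend (adjusted p under 0.05, fold change over 1.5), where 0.0143% of 13998 tested genes (2 genes) were called. Results of this contrast were known when the members were chosen, so nothing is read from this count. FOS, FOSB, JUN and JUNB were lower in both samples with FeAc than in either vehicle sample (4 of 8 members, beside 10.4% of all tested genes), and FOSL2 was higher in both (1 of 8, beside 23.4%). The median log2 fold change was 0.085 over all tested genes. Scaling by the median of ratios moved that median to -0.01, and the 5 members kept their direction under it, with FOS at -2.44 and JUN at -1.12.

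**Figure D2:**
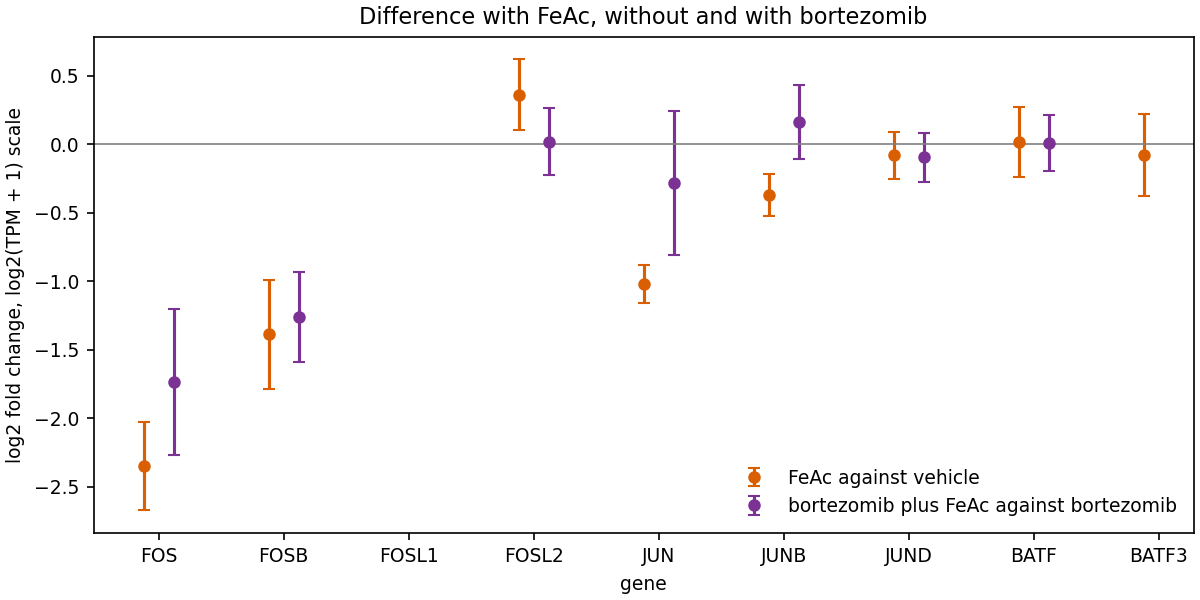
Fitted difference on log2(TPM + 1) (vertical axis, log2 fold change) with FeAc, in the absence and in the presence of bortezomib. Error bars are standard errors of the limma fits, with 2 samples in each group. FOS and FOSB lie below 0 in both comparisons, JUN is at -1.02 in the first and -0.28 in the second, and FOSL1, and BATF3 in the second, were under the filter on low values.

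With bortezomib present, FOS and FOSB were again lower with FeAc, while JUN was not separated. FOS had a log2 fold change of bortezomib plus FeAc against bortezomib of -1.73 (SE 0.53), rank 44 from the lowest of 13865 genes, and FOSB one of -1.26 (SE 0.33), rank 88. The samples of bortezomib plus FeAc lay far apart in FOS. Without replicate 1 of that group the FOS value was -0.88, and without replicate 2 it was -2.58, while that of FOSB was -1.12 and -1.41.

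JUN was 266 and 189 TPM with bortezomib and 323 and 105 TPM with bortezomib plus FeAc. The last group thus held both the highest and the lowest of these 4 samples, and the log2 fold change of -0.28 (SE 0.52) turned to 0.53 without bortezomib plus FeAc replicate 2 and was -1.09 without replicate 1. Replicate 1 of bortezomib plus FeAc, in which JUN was highest and FOS lowest of all 8 samples, also had the lowest share of mitochondrially encoded transcripts, at 2.99% of its TPM beside 10.1% in replicate 2 and 5.49% to 14.3% in the other 6 samples. Its part in these values was not tested. JUNB was 31.9 and 25.8 TPM with bortezomib and 41.2 and 25.2 TPM with bortezomib plus FeAc, a log2 fold change of 0.16 (SE 0.27) that was -0.18 without replicate 1 of the latter group.

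The remaining members differed little between the bortezomib groups. JUND was 110.1 and 98.1 TPM with bortezomib and 109.6 and 86.2 TPM with bortezomib plus FeAc (log2 fold change -0.10, SE 0.18). BATF was 5.46 and 5.37 TPM with bortezomib and 5.52 and 5.39 TPM with bortezomib plus FeAc (0.01, SE 0.20), and FOSL2 differed by 0.02 (SE 0.24). BATF3 was 1.07 and 0.600 TPM with bortezomib and 0.750 and 1.23 TPM with bortezomib plus FeAc, with means under 1 TPM in both groups. FOS and FOSB were lower in both samples (2 of 7 members that passed the filter, beside 13.1% of 13865 genes), and FOSL2 was higher in both (1 of 7, beside 8.86%) at a difference in means of 2.67 to 2.73 TPM. In this comparison 0 of the 7 were called by limma-trend, beside 0.00721% of genes, a count from which nothing is read either.

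The interaction of FeAc and bortezomib, the difference between both FeAc differences, was taken from a fit of all 4 groups. It was 0.74 for JUN (SE 0.63), 0.61 for FOS (SE 0.73), 0.53 for JUNB (SE 0.33) and 0.12 for FOSB (SE 0.54) on the log2 scale, each within 2 standard errors of 0. These values rested on single samples. Without bortezomib plus FeAc replicate 1 they were -0.073 for JUN, 1.47 for FOS and 0.19 for JUNB, and without replicate 2 of that group 1.54 for JUN, -0.23 for FOS and 0.88 for JUNB. FOS was 1.10 without FeAc replicate 1 and 0.13 without FeAc replicate 2, and FOSB ranged from -0.40 to 0.65 over the samples left out. Of the 8 members measured 0 were called by limma-trend, beside 0.00675% of 14812 genes. The separation of JUN by FeAc in the absence of bortezomib and its overlap in the presence of bortezomib was therefore not shown to be a difference between these conditions.

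Set side by side with vehicle, bortezomib-treated cells held more JUN and less FOS. JUN had a mean of 227 ± 54.1 TPM with bortezomib, 4.24 times that with vehicle, and a mean of 214 ± 155 TPM with bortezomib plus FeAc, 8.25 times that with FeAc. All 4 samples with bortezomib were above all 4 without it. JUND, at 104 ± 8.51 and 97.9 ± 16.6 TPM, was 1.33 times the vehicle mean and 1.32 times the FeAc mean, also without overlap. FOS was 29.5 ± 0.544 TPM with bortezomib, a ratio of 0.501 to vehicle, but its samples with bortezomib plus FeAc overlapped those with FeAc. FOSB had a ratio of 0.648 to vehicle and BATF3 one of 0.530, both without overlap, and BATF and JUNB overlapped.

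Of the 8 members whose mean reached 1 TPM in bortezomib or vehicle, 3 (JUN, JUND and FOSL2) were higher in both bortezomib samples, beside 26.8% of all genes, and 3 (FOS, FOSB and BATF3) were lower in both, beside 36.1%. Between bortezomib plus FeAc and FeAc, the same 3 members were higher in both samples, of 8, beside 19.8% of genes, and 0 were lower in both, beside 40.3%. A ratio of at least 2 in the means, on TPM + 1, was found for 5.88% of genes upward and 5.37% downward with bortezomib against vehicle. These comparisons share samples with those of FeAc, so the values are given side by side and not combined.

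**Figure D3:**
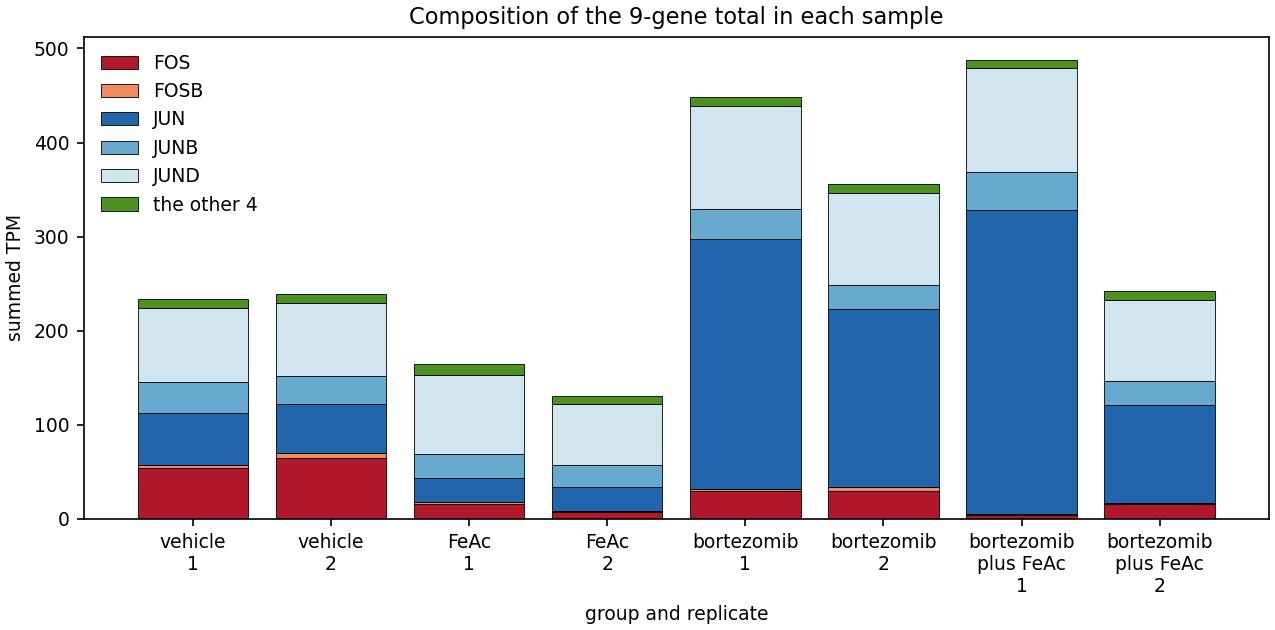
Summed TPM of the 9 genes in each sample (bars from 0), split into FOS, FOSB, JUN, JUNB, JUND and the other 4 members. The totals run from 131 TPM in FeAc replicate 2 to 488 TPM in bortezomib plus FeAc replicate 1, and JUN makes up 43.3% to 66.3% of the total in the 4 bortezomib-treated samples.

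The make-up of the family by transcript differed between the groups. The summed level of the 9 genes was 236 ± 3.28 TPM with vehicle, 165 and 131 in the FeAc samples, 402 ± 65.9 with bortezomib and 365 ± 174 for bortezomib plus FeAc. FOS group genes were 25.3% and 30.1% of that sum in the vehicle samples, 12.4% and 8.25% with FeAc, 7.66% and 10.3% with bortezomib and 1.56% and 7.91% with bortezomib plus FeAc. Every sample given FeAc or bortezomib had a smaller FOS group share than either vehicle sample. JUN group genes were 67.2% and 71.0% with vehicle and between 82.2% and 97.2% in all other samples. The leading gene was JUND with vehicle and with FeAc, where it took 50.3% ± 0.910 of the sum, and JUN with bortezomib, at 56.2% ± 4.25. In bortezomib plus FeAc the order of JUN and JUND is not separated, since their samples overlapped. These are shares of transcript and not of protein.

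Among bZIP genes outside the family, some of which can pair with its members, none passed the test with FeAc. Of 28 genes 22 were tested with FeAc against vehicle, of which 0 were called and 2 had an unadjusted p under 0.05. In both samples 10 were higher and 3 lower, beside 23.4% and 10.4% of all tested genes, with a median log2 fold change of 0.10. Over all 13998 tested genes, 2 were called and 535 had an unadjusted p under 0.05. At that share a list of this size would hold almost no called gene. Nothing is read from 0 calls here or in the lists below. NFE2L1, which drives the recovery of proteasome genes, had a log2 fold change of 0.59 (SE 0.14, adjusted p = 0.891 from limma) and MAFG, a small MAF protein, one of 0.45 (SE 0.15). With bortezomib plus FeAc against bortezomib, 0 of 23 were called, 0 had an unadjusted p under 0.05 and the median was -0.07, beside -0.04 for all tested genes. Over all 13865 genes tested there, 1 was called and 290 had an unadjusted p under 0.05. Of the 23 genes tested, 17 were higher and 2 lower in both bortezomib samples than in both vehicle samples, beside 26.8% and 36.1% of all genes. Their median log2 ratio was 0.66, beside -0.07 for all genes. This list and those below were, like the members, chosen with earlier results of these data known. Their counts and medians beside those of all genes are therefore descriptions.

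ATF3, a stress-induced partner of JUN proteins, had the largest ratio of bortezomib to vehicle in that list. It was 18.1 and 19.9 TPM with vehicle, 24.6 and 14.9 with FeAc, 165 and 124 with bortezomib and 163 and 97.4 with bortezomib plus FeAc. Its mean with bortezomib was 7.60 times that with vehicle, and all samples with bortezomib were above all without it, as for JUN. DDIT3, the CHOP factor of the unfolded protein response, had a ratio of 5.04 and MAFG one of 3.52. CEBPB, named for its ratio of 3.54 between bortezomib plus FeAc and FeAc, was 7.29 to 9.56 TPM without bortezomib and 15.7 to 40.4 TPM with it.

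Genes long described as AP-1 targets lay in both directions. Of 45 genes, 26 were tested with FeAc against vehicle, of which 0 were called by limma-trend and 3 had an unadjusted p under 0.05. In both samples 10 were higher and 4 lower (median 0.15), beside 23.4% and 10.4% of all tested genes. HMOX1, heme oxygenase, was 12.4 and 12.5 TPM with vehicle and 23.0 and 21.8 TPM with FeAc (log2 fold change 0.80, SE 0.15, adjusted p = 0.659). CCL4, a chemokine, was 30.5 and 33.4 TPM with vehicle and 16.5 and 20.5 TPM with FeAc (-0.76, SE 0.17, adjusted p = 0.891), and CDKN1A, the p21 inhibitor of the cell cycle, had a log2 fold change of 0.45 (SE 0.16). These were the largest differences of the list among genes whose mean reached 5 TPM in a group. CCL4 was also lower in both samples of bortezomib plus FeAc than in both of bortezomib (-0.47, SE 0.17), where 0 of 24 targets were called and 1 had an unadjusted p under 0.05.

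In the bortezomib groups HMOX1 had the largest ratio of the targets named here. It was 544 and 320 TPM with bortezomib, a mean 34.7 times that with vehicle, and 1663 and 339 TPM with bortezomib plus FeAc. ANXA1, an annexin, had a ratio of 5.39 to vehicle and CDKN1A one of 3.64. Of 25 targets tested, 14 were higher and 6 lower in both bortezomib samples than in both vehicle samples, beside 26.8% and 36.1% of all genes. Their median log2 ratio was 0.26, beside -0.07 for all genes. HMOX1 is also known as a target of NRF2.

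Other immediate-early genes were split with FeAc against vehicle and mostly higher in the bortezomib samples. DUSP1, a phosphatase that switches off MAP kinases, was 50.4 and 49.9 TPM with vehicle, 13.8 and 15.0 with FeAc, 96.6 and 72.1 with bortezomib and 53.4 and 29.4 with bortezomib plus FeAc. It was lower with FeAc in both settings, with log2 fold changes of -1.73 (SE 0.15, adjusted p = 0.0656 from limma) and -1.05 (SE 0.31, adjusted p = 1.00), neither of which passed. DUSP6, a phosphatase of ERK, was 20.7 and 19.8 TPM with vehicle and 15.2 and 13.3 TPM with FeAc (-0.48, SE 0.16), and 2.51 to 4.92 TPM in the 4 bortezomib samples. GADD45A, a stress gene, and ZFP36, which promotes decay of short-lived mRNA, were 5.86 and 4.46 times their vehicle means with bortezomib. Of 21 genes whose mean reached 1 TPM with bortezomib or vehicle, 14 were higher and 3 lower in both bortezomib samples. Over all genes these shares were 26.8% and 36.1%. The median log2 ratio of the 21 was 0.49, beside -0.07 for all genes. Of 29 genes, 20 were tested with FeAc against vehicle, with 0 called, 2 at an unadjusted p under 0.05 and a median of 0.10. In both samples 6 were higher and 4 lower, beside 23.4% and 10.4% of all tested genes. With bortezomib plus FeAc against bortezomib, 0 of 20 were called and 1 had an unadjusted p under 0.05. There, 1 was higher and 6 were lower in both samples, beside 8.86% and 13.1% of all tested genes.

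**Figure D4:**
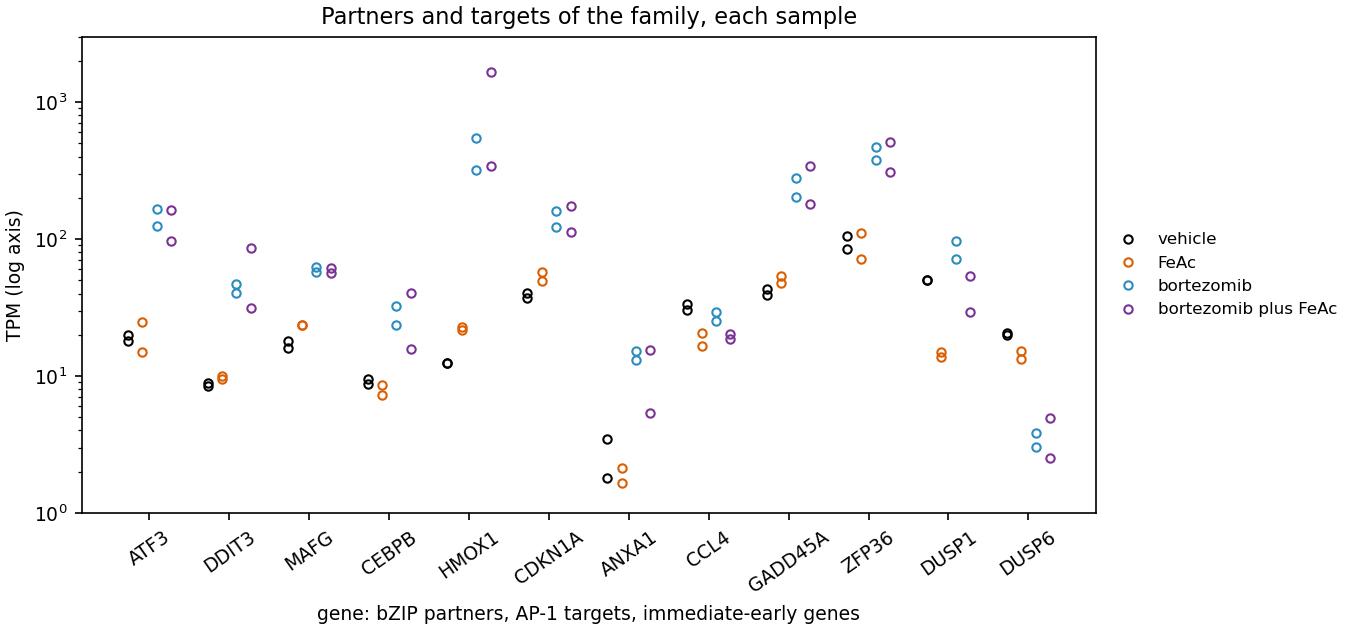
TPM on a log axis for 4 bZIP partners (ATF3, DDIT3, MAFG, CEBPB), 4 AP-1 targets (HMOX1, CDKN1A, ANXA1, CCL4) and 4 immediate-early genes (GADD45A, ZFP36, DUSP1, DUSP6), with each sample as a circle in the colour of its group. HMOX1 spans 12.4 to 1663 TPM, DUSP1 is lower with FeAc than without it on either background, and DUSP6 is lower in both bortezomib groups than in the other groups.

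Transcripts of the MAP kinase cascade, which acts on FOS and JUN through phosphorylation, held 0 called genes. That is near the share of all tested genes, 0.0143% with FeAc against vehicle and 0.00721% in the presence of bortezomib. With FeAc against vehicle 0 of 36 tested genes were called and 0 had an unadjusted p under 0.05, with a median of 0.13. In both samples 14 were higher and 1 lower, beside 23.4% and 10.4% of all tested genes. MAP3K3 and MAPK3 (ERK1) had the largest log2 fold changes of genes at this level, at 0.47 (SE 0.20) and 0.42 (SE 0.17). With bortezomib plus FeAc against bortezomib, 0 of 36 were called and 0 had an unadjusted p under 0.05. There, 0 were higher and 7 lower in both samples, beside 8.86% and 13.1% of all tested genes. With bortezomib, MAP2K3, a kinase of p38, had a mean 2.40 times that with vehicle and MAPK13, a p38 kinase, a ratio of 0.379. The list as a whole lay near all genes. Of 37 genes, 10 were higher and 15 lower in both bortezomib samples, beside 26.8% and 36.1% of all genes. Their median log2 ratio was -0.06, beside -0.07. A list of 10 genes linked to FOS transcription held SRF, the ternary complex factors ELK1, ELK3 and ELK4, and CREB1. It also held the cofactors CREBBP, EP300, MED23, MRTFA and MRTFB. Of these 10, 0 were called in either FeAc comparison and 0 had an unadjusted p under 0.05, with medians of 0.15 and -0.14. SRF itself was 12.8 and 13.4 TPM with vehicle, 15.6 and 15.4 with FeAc and 6.82 to 10.9 in the 4 bortezomib samples.

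Genes for turnover and cofactors of the proteins, and partners of BATF, held 0 called genes too, again near the share of all tested genes. Of 15 genes of the former kind 0 were called in either FeAc comparison and 0 had an unadjusted p under 0.05, while TRIB1, a pseudokinase that steers ubiquitin ligase COP1, was 2.45 times its vehicle mean with bortezomib. Of 13 IRF partners and targets of BATF complexes, 4 were tested, with 0 called and 0 at an unadjusted p under 0.05 in both FeAc comparisons. IRF4 was 111 and 159 TPM with vehicle and 190 and 154 TPM with FeAc, overlapping (log2 fold change 0.36, SE 0.22). PRDM1, the BLIMP1 factor of plasma cells, had a log2 fold change of 0.29 (SE 0.17), and CIITA, which drives MHC class II genes, had a ratio of bortezomib to vehicle of 0.440. IRF4 was 15.8 to 32.3 times as abundant as BATF by transcript in the same sample. In the interaction, of 136 genes tested over these 7 lists, 0 were called by limma-trend and 4 had an unadjusted p under 0.05. A gene in more than 1 list was counted in each. Over all 14812 genes, 1 was called and 348 had an unadjusted p under 0.05.

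The genes whose pattern lay nearest to a member were found by the root mean square difference of log2(TPM + 1), each gene centred on its mean over the 8 samples, among 10397 genes outside the family whose mean reached 5 TPM in any group. Nearest to FOS was TFRC, the transferrin receptor (0.60), followed by LIPE-AS1 (0.68), the chemokine gene CCL4L2 (0.73) and RSPH4A (0.80). TFRC was 120 and 123 TPM with vehicle, 57.4 and 52.6 with FeAc, 65.6 and 94.2 with bortezomib and 27.8 and 44.5 with bortezomib plus FeAc, the same order of group means as FOS. LIPE-AS1 is an antisense gene, and CCL4L2 is a near copy of CCL4, so their values depend on how reads were assigned. Within the family, FOSB was nearest to FOS, at 0.54, and JUN was farthest from it, at 1.90.

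JUN lay nearest to genes that were high in both bortezomib groups. These were HSP90AA2P, a pseudogene of a heat shock gene whose reads may come from its parent (0.36), DNAJB4, a chaperone of the HSP40 class (0.38), DOK2, an adaptor protein (0.38), and DDIT4, an inhibitor of mTORC1 (0.40). DNAJB4 was 8.24 and 6.26 TPM with vehicle, 6.24 and 3.87 with FeAc, 28.8 and 26.8 with bortezomib and 37.5 and 18.1 with bortezomib plus FeAc. DDIT4 was 6.96 to 9.77 TPM without bortezomib and 20.6 to 60.8 TPM with it. In all 4 genes, as in JUN, bortezomib plus FeAc replicate 1 was the highest and replicate 2 the lowest of the samples with bortezomib. BATF lay nearest to genes with little difference between groups, SMARCA5-AS1 (0.073), MRRF (0.085), NDUFAF7 (0.086) and ZNF146 (0.091).

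FOS and BATF are neighbours on chromosome 14 and had different patterns. In GENCODE release 29 (GRCh38), FOS (ENSG00000170345) lies from 75278774 to 75282230 with 4 exons, and BATF (ENSG00000156127) from 75522425 to 75547015 with 3 exons, both on the plus strand and 240195 bases apart. JDP2, a bZIP repressor of AP-1, is the coding gene between them, and it was at 0.0800 to 1.25 TPM in all samples. TMED10, before FOS, was between 78.0 and 83.5 TPM in the vehicle and FeAc samples, among which FOS was 7.38 to 64.1 TPM. TMED10 was lower with bortezomib, at 57.6 and 59.0 TPM, and with bortezomib plus FeAc, at 59.25 and 75.4 TPM. FLVCR2, after BATF, was at 0.0800 to 0.430 TPM.

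The 3 JUN group genes have no intron in this annotation. JUN (ENSG00000177606) is on chromosome 1 from 58780788 to 58784327 and JUND (ENSG00000130522) on chromosome 19 from 18279760 to 18281622, both on the minus strand, and JUNB (ENSG00000171223) is on chromosome 19 from 12791496 to 12793315 on the plus strand. FOSB (ENSG00000125740) lies on chromosome 19 from 45467995 to 45475179. JUNB lies within the annotated span of HOOK2, and FOSB within that of ERCC1, both on the opposite strand. HOOK2 was 4.42 to 13.2 TPM and ERCC1 13.9 to 22.5 TPM. Whether the counting used strand is not given in the sources used here, so reads of FOSB, the lower of the 2 members, and ERCC1 may not be fully separated. ERCC1 was 22.5 and 22.2 TPM with vehicle and 20.8 and 20.3 TPM with FeAc, a smaller difference than that of FOSB. FOS, JUN, JUND, BATF, BATF3 and FOSL1 overlap no other annotated gene, and FOSL2 overlaps FLJ31356 and AC104695.3, which were at 0 to 1.06 TPM.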

How the data were processed

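RNA sequencing of 8 samples of MM.1S cells was deposited as values that were read as TPM from their sums, since the headers name no unit. The authors' notes name HISAT2, StringTie, RSEM, DESeq2, edgeR and genome build GRCh38.p13, without versions or the role of each tool. The deposited tables also hold the authors' fold changes, log2 fold changes and p-values (group means too), which were not used. TPM keep no read counts, so depth is unknown. Groups were taken from GEO's labels, and the file headers write FAC for FeAc.

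Genes whose mean reached 1 TPM in a compared group were fitted with limma-trend (limma 3.58.1, R 4.3.3) on log2(TPM + 1), with Benjamini-Hochberg adjustment over all tested genes, and called where the adjusted p was under 0.05 and the fold change over 1.5. The scale understates changes of low genes. The script was tested on simulated data. The 9 members and all gene lists were chosen with earlier results of these data known. Named list genes are, per list and comparison, up to 4 called genes and up to 3 with the largest absolute log2 fold change (or log2 ratio across tables) among those whose mean reached 5 TPM. Positions are from GENCODE 29 and promoters from RefSeq on GRCh38.p14. The settings varied were the pseudocount (0.1), the filter (none), scaling by the median of ratios, a replicate block, all 4 groups in 1 fit and each sample left out in turn. Values of some marker genes are not reported here.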

Additional observations from a re-analysis of the deposited data

How the results depend on the processing

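The counts of called genes depended on the settings and were small throughout. For FeAc against vehicle, 2 genes were called, and 4 with a pseudocount of 0.1, 0 without a filter on low values and 23 with the replicate block (14 higher and 9 lower), with 0 in every fit that left out 1 sample. For bortezomib plus FeAc against bortezomib, 1 was called, which was higher, where the fit of all 4 groups called 1 that was lower. There were 0 calls without the filter, again with 0 in every fit that left out 1 sample. For the interaction, 1 was called, and 0 with a pseudocount of 0.1, 0 without the filter and 0 with the replicate block, with 5 to 18 when a sample was left out. Where that left a group with 1 sample, the lone sample was assumed to vary like the others. The cause of these shifts was not tested. Replicate numbers are shared across the groups, but no label says that they mark pairs. Deviations of same-numbered samples correlated at -0.148 between vehicle and FeAc and at 0.063 between both bortezomib groups, over 14812 genes, and over the 6 pairs of groups from -0.148 to 0.186, the last between vehicle and bortezomib plus FeAc. A crossed replicate block, chosen after seeing the data, gave 16 calls with FeAc against vehicle. FOS was the only member called in any of these fits, with FeAc against vehicle in both replicate blocks, beside 23 and 16 genes called of 13998. Since FOS was chosen with its values known, nothing is read from these calls.

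Over all alternatives the log2 fold change of FeAc against vehicle ranged from -2.83 to -1.86 for FOS, from -2.03 to -0.86 for FOSB, from -1.12 to -0.99 for JUN and from -0.47 to -0.29 for JUNB. With bortezomib present it ranged from -2.58 to -0.88 for FOS, from -2.01 to -1.01 for FOSB and from -1.09 to 0.53 for JUN. The log2 ratio of JUN between bortezomib and vehicle ranged from 1.82 to 2.31. With 2 samples per group and unknown depth, differences of a gene as low as FOSL1 could not be assessed.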
